A study of Mus musculus with 3 samples.

Results

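The cathepsins are the proteases that give the lysosome most of its power to break down protein, and 10 of their genes (*Ctsa*, *Ctsb*, *Ctsc*, *Ctsd*, *Ctsf*, *Ctsh*, *Ctsk*, *Ctsl*, *Ctss* and *Ctsz*) were followed by their mouse symbols in RNA-seq of melan-a cells, out of 22698 Ensembl genes in the files. All 10 had a value in every library. The cells are an immortalized mouse melanocyte line on a C57BL/6J background, carry a deletion of Ink4a-ARF, and were grown in RPMI 1640 with 10% fetal bovine serum, 200 nM of the phorbol ester TPA and 200 pM cholera toxin, with no other treatment. The 3 libraries of this single condition, named replicates 1, 3 and 4, were described as biological replicates of 1 cell line, and each was sequenced on 3 lanes. With no second condition to set against them, levels were compared between genes within a library and between the libraries. The cells are 1 line selected for growth in culture, which limits them as a model of melanocytes in skin.

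Most cathepsins are made in the endoplasmic reticulum as inactive precursors, tagged with mannose 6-phosphate in the Golgi, carried to endosomes and lysosomes by sorting receptors, and cut to the active form in the acid lumen. They fall into 3 catalytic classes: papain-type cysteine proteases, the pepsin-type aspartic proteases and a serine carboxypeptidase. Cystatins are small proteins that block the cysteine class. Melanocytes carry both lysosomes and melanosomes, the pigment organelles, which belong to the lysosome-related organelles and share much of the same sorting machinery.

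The classes can be read from the coding sequence around a residue that takes part in catalysis. The following 30 bases, taken from the NCBIM37 (mm9) coding transcripts, show such a site in each member in order of its level. The codon of that residue is in capitals: an aspartic acid in *Ctsd*, a serine in *Ctsa* and a cysteine in the 8 others. Further catalytic residues are not marked.

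Ctsd: acagtcgtctttGATactggctcctctaac

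Ctsb: gaccagggctccTGCggctcttgttgggca

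Ctsz: atcccacagtacTGTggttcctgctgggcc

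Ctsl: aaccagggccagTGCgggtcttgttgggcg

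Ctsa: ctgacaggagagAGCtatgctggcatctac

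Ctsc: aaccaagaatctTGTggaagctgctactca

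Ctsf: aaccagggcatgTGTggctcctgctgggcc

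Ctsh: aatcagggggccTGTggcagctgctggact

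Ctss: taccagggttctTGTggtgcctgctgggct

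Ctsk: aaccagggccagTGTggttcctgttgggct

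All of these codons lie in coding exons. In mm9 the capital codon of *Ctsd* is at chr7:149569384-149569386 in exon 3 of 10 on the minus strand, that of *Ctsb* at chr14:63754545-63754547 in exon 4 of 10 on the plus strand, that of *Ctsz* at chr2:174263706-174263708 in exon 2 of 7 on the minus strand and that of *Ctsl* at chr13:64468392-64468394 in exon 5 of 8 on the minus strand. The serine codon of *Ctsa* is at chr2:164660743-164660745 in exon 7 of 16 on the plus strand. The cysteine codons of *Ctsk* and *Ctss* are at chr3:95306510-95306512 and chr3:95349261-95349263, each in exon 5 of 8 on the plus strand. Those of *Ctsc*, *Ctsf* and *Ctsh*, also on the plus strand, are at chr7:95456528-95456530 in exon 6 of 7, chr19:4858422-4858424 in exon 8 of 14 and chr9:89959351-89959353 in exon 6 of 12. Among the 8 cysteine members the stretches shared between 14 of 30 bases (*Ctsl* and *Ctsc*) and 26 of 30 (*Ctsl* and *Ctsk*), so that the stretch most like that of the abundant *Ctsl* belongs to a member at the limit of detection. Across whole transcripts the longest identical run between any 2 of the 10 members was 18 bases, in *Ctsf* and *Ctsh*.

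Levels are given as FPKM, in which the reads of a gene are divided by its length and by the size of the library. The sizes were recovered from the low values of short genes. They include any scaling between libraries in the deposited values, so they are not counts of sequenced reads. In units of 1000000 reads they were 53.8 in replicate 1, 47.0 in replicate 3 and 66.3 in replicate 4. A total of 3 reads was taken as the smallest measurable level. The label of the cells was checked against marker genes. All 8 melanocyte markers reached 1 FPKM in every replicate, with sums of 5779 to 6617 FPKM, whereas 0 of 4 keratinocyte, 1 of 5 fibroblast, 0 of 9 macrophage and osteoclast, 0 of 3 T and natural killer cell and 0 of 4 neutrophil and mast cell markers did. The share over all genes was 44.1%.

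Of the 10 cathepsins, 8 were at 1 FPKM or more in every replicate, where 44.1% of all genes were, and 5 were among the 1000 genes with the highest mean, which hold 4.41% of all genes. *Ctsd*, *Ctsb*, *Ctsz*, *Ctsl* and *Ctsa* made up the group of 5. *Ctsd* and *Ctsb* also ranked within the first 100 genes. The 10 genes summed to 2027 ± 111 FPKM (SD, n = 3), or 0.537% ± 0.00998 of all FPKM in a library. *Ctsd* and *Ctsb* together made up 74.5% ± 1.60 of that sum, whereas the 4 lowest members (*Ctsf*, *Ctsh*, *Ctss* and *Ctsk*) together made up 0.404% ± 0.0163.

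**Figure D1:**
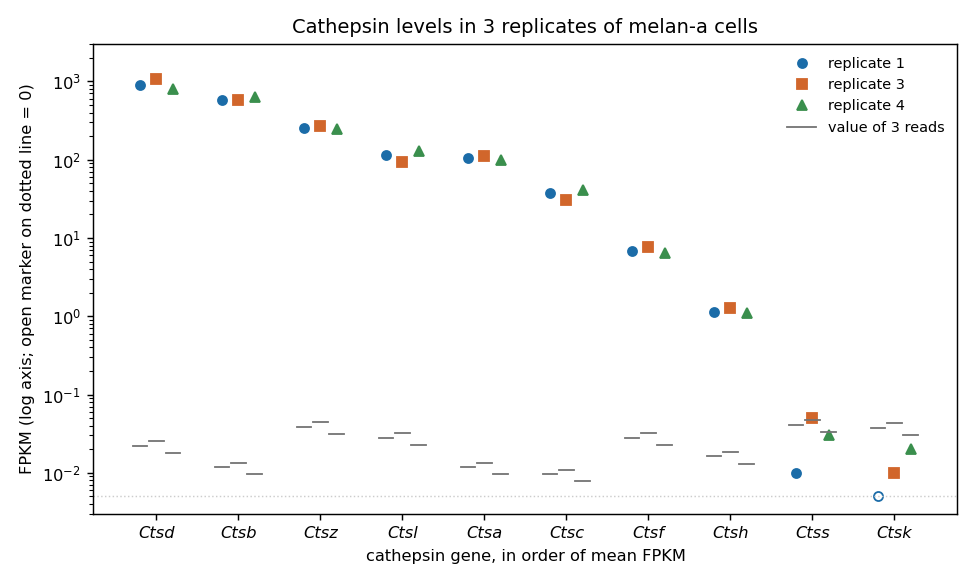
FPKM (log axis) of each cathepsin in replicates 1, 3 and 4, in order of the mean, with a grey dash at the value of 3 reads in that library. Levels run from 1062.4 FPKM for Ctsd in replicate 3 down to 0 for Ctsk in replicate 1 (open marker), and only Ctss and Ctsk lie near or below 3 reads.

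*Ctsd* encodes cathepsin D, the main aspartic endopeptidase of lysosomes, and was the highest member. Its values were 895.91, 1062.4 and 795.88 FPKM in replicates 1, 3 and 4, a mean of 918 ± 135 FPKM (SD, n = 3), at rank 31 of 22698 genes. These values correspond to an estimated 121416, 125781 and 132920 reads, so that counting error is small beside the spread between libraries. Replicate 3 was the highest and replicate 4 the lowest. The level lay in the range of abundant melanosomal transcripts. *Ctsd* was 1.59 ± 0.102 times as high as *Pmel*, which encodes the fibril protein of melanosomes, and above it in each library, with ratios of 1.51, 1.71 and 1.56. *Dct* and *Tyrp1*, which encode enzymes of eumelanin synthesis, were higher than *Ctsd* by 1.57 ± 0.326 and 3.52 ± 0.939 times. The gene lies at chr7:149557053-149573943 (mm9, minus strand), and 6.47% of its exon bases are shared with the gene 6330512M04Rik on the same strand, which had a mean of 0.0567 FPKM.

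*Ctsb* encodes cathepsin B, a cysteine protease that cuts both within chains and pairs of residues from their carboxyl end. It had 576.61, 577.74 and 621.95 FPKM in replicates 1, 3 and 4, a mean of 592 ± 25.9 FPKM (SD, n = 3) at rank 62. The 3 libraries lay within a coefficient of variation of 4.37%, the smallest of the 10 members. *Ctsb* lay below *Ctsd* in all 3 replicates, and the ranges of the 2 genes did not overlap. The ratio of *Ctsd* to *Ctsb* was 1.55, 1.84 and 1.28 in replicates 1, 3 and 4 (mean log2 ratio 0.62 ± 0.26). On the other strand of the same locus (chr14:63741302-63764758), *Fdft1* overlaps 16.2% of the exon bases of *Ctsb*. *Fdft1* had a mean of 58.7 FPKM.

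*Ctsz* encodes cathepsin Z, also called cathepsin X, a cysteine carboxypeptidase. Its values were 255.19, 267.49 and 243.68 FPKM, with a mean of 255 ± 11.9 FPKM at rank 187. All 3 libraries lay close together and well below *Ctsb*, which was 2.26, 2.16 and 2.55 times as high. The gene is on chromosome 2 (174252994 to 174264540, minus strand). *Th1l* on the other strand overlaps 0.694% of its exon bases and had a mean of 13.2 FPKM. The next protein-coding genes without overlap at higher coordinates were *Tubb1* and *Atp5e*. *Tubb1*, a tubulin gene of platelets, was listed at 0 in all replicates, and *Atp5e* had 92.5 ± 6.45 FPKM.

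*Ctsl* and *Ctsa* followed, at levels that could not be set in order. *Ctsl* encodes cathepsin L, a strong cysteine endopeptidase, and had 115.24, 92.83 and 130.08 FPKM in replicates 1, 3 and 4 (mean 113 ± 18.8, rank 500). *Ctsa* encodes cathepsin A, the serine carboxypeptidase that holds neuraminidase 1 and beta-galactosidase in a stable complex in the lysosome. It had 103.47, 110.56 and 97.73 FPKM (mean 104 ± 6.43, rank 556). *Ctsl* was above *Ctsa* in replicates 1 and 4 and below it in replicate 3, and the ranges overlapped. The mean log2 ratio of 0.11 was smaller than its SD of 0.34, so that the 2 genes did not differ beyond the spread between libraries.

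*Ctsc* encodes cathepsin C or dipeptidyl peptidase 1, which removes pairs of residues from the amino end of proteins and activates serine proteases of immune cell granules. Its values of 37.47, 30.72 and 40.37 FPKM (mean 36.2 ± 4.95, rank 1882) lay below those of *Ctsa* in every replicate, by 2.76, 3.60 and 2.42 times. *Ctsc* lies at chr7:95426595-95459398 (mm9, plus strand). *Rab38*, a small GTPase gene of melanosome cargo transport, lies 119385 bases further on and had 254 ± 18.8 FPKM. On the other side *Grm5*, a glutamate receptor gene, was listed at 0 in all 3 replicates, and the next gene, the tyrosinase gene *Tyr*, had 68.7 ± 8.30 FPKM at a distance of 784652 bases.

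*Ctsf* and *Ctsh* were measurable at low levels. *Ctsf*, for the cysteine protease cathepsin F, had 6.9, 7.72 and 6.38 FPKM (mean 7.0 ± 0.676, rank 6467), which was 5.43, 3.98 and 6.33 times lower than *Ctsc*. *Ctsh*, for the aminopeptidase cathepsin H, had 1.14, 1.27 and 1.09 FPKM (mean 1.17 ± 0.0929, rank 10066), or an estimated 212, 206 and 249 reads. Both were highest in replicate 3 and lowest in replicate 4. Their ratio had the smallest spread between libraries among the neighbours compared, with 6.05, 6.08 and 5.85 (mean log2 ratio 2.58 ± 0.03), but its size depends on the gene length used, with a mean log2 ratio of 1.49 per longest coding transcript. From *Ctsd* to *Ctsh* the span was 786, 837 and 730 times in replicates 1, 3 and 4. This span depends on the gene length too, and is smaller per longest coding transcript, with means of 1087 FPKM for *Ctsd* and 2.49 for *Ctsh*.

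*Ctss* and *Ctsk* were at the limit of detection. *Ctss* encodes cathepsin S, the protease of antigen-presenting cells that trims the invariant chain of MHC class II, and had 0.01, 0.05 and 0.03 FPKM, an estimated 1, 3 and 3 reads. *Ctsk* encodes cathepsin K, the collagen-degrading protease of osteoclasts, and had 0, 0.01 and 0.02 FPKM, an estimated 0, 1 and 2 reads. The value of 3 reads in replicate 3, the library of the smallest recovered size, is 0.0470 FPKM for *Ctss* and 0.0431 FPKM for *Ctsk*. *Ctss* was above *Ctsk* in 3 of 3 replicates, but the ranges overlapped and no library held more than 3 estimated reads of either gene, so that no order was read between them. Pooled over libraries, 7 reads on *Ctss* come to 0.0308 FPKM with an exact 95% Poisson interval of 0.0124 to 0.0636, and 3 reads on *Ctsk* to 0.0121 FPKM with an interval of 0.00250 to 0.0354, both for counting error only. The pooled level of *Ctsd* was 74544 times that of *Ctsk*, with a counting interval of 25508 to 361473 times.

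Markers of the cells known for these 2 proteases were also low. Of 9 macrophage and osteoclast markers in the files 0 reached 1 FPKM in every replicate, and they summed to 1.41, 1.01 and 1.91 FPKM. *Ptprc*, *Itgam* and *Calcr* were at 0 in all 3 libraries. *Cd68*, a lysosomal membrane glycoprotein abundant in macrophages, was the highest of them with 1.2, 0.76 and 1.6 FPKM. *Cd74*, the invariant chain gene, had 0.07, 0.02 and 0.05 FPKM. In RNA of whole cultures, fewer cells of a type and less RNA per cell cannot be told apart, and the part of rare other cells in these few reads was not tested.

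*Ctsk* and *Ctss* are neighbours on chromosome 3, on the same strand, at chr3:95303208-95313284 and chr3:95330708-95360325 in mm9, with 17424 bases between them. The genes that flank the pair were not uniformly low. *Arnt*, for a partner of hypoxia-inducible factors, lies 2046 bases before *Ctsk* and had 13.52, 12.78 and 15.97 FPKM. Beyond *Ctss*, the meiotic gene *Hormad1* was listed at 0 throughout, and *Golph3l*, a Golgi gene, had 10.7 ± 1.34 FPKM (SD, n = 3). *Ctsk* and *Ctss* thus lay far below *Arnt* on one side and *Golph3l* on the other.

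Over the whole order, 7 of 9 neighbouring pairs had ranges that did not overlap, with the higher gene above the lower in each library. The exceptions were *Ctsl* with *Ctsa* and *Ctss* with *Ctsk*. No p-value is given for these steps. Both genes of a pair were measured in the same 3 libraries, and an exact paired test has few arrangements of 3 libraries. Even an exact permutation test of 3 values against 3, which ignores the pairing and has more arrangements, cannot go below p = 0.1.

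By class, the 8 cysteine cathepsins summed to 993, 978 and 1044 FPKM in replicates 1, 3 and 4, or 49.8%, 45.5% and 53.9% of the cathepsin total. The aspartic protease *Ctsd* alone contributed 45.2% ± 4.16 and the serine carboxypeptidase *Ctsa* 5.13% ± 0.0757. In replicate 3 the share of *Ctsd* exceeded that of all cysteine members, with 49.4% against 45.5%, whereas in replicates 1 and 4 it was smaller. The order of these 2 classes was thus not settled by the 3 libraries. It also depends on the scalings described below. In replicates 1, 3 and 4 *Ctsd* had 886, 958 and 893 FPKM with the trend over GC content removed. The summed cysteine members then lay above it in each replicate. Per longest coding transcript *Ctsd* had 1061, 1258 and 942 FPKM. It then lay above the summed cysteine members in replicates 1 and 3 and below them in replicate 4. The class shares given here are for the deposited values only.

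**Figure D2:**
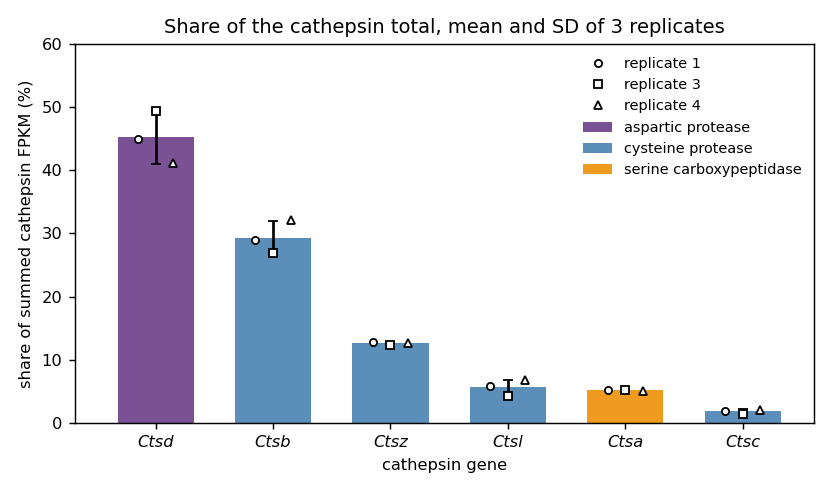
Share of the summed FPKM of the 10 cathepsins (percent) for the 6 highest members, as the mean (bar) and SD (line) of 3 replicates with each replicate as a point, colored by catalytic class. Ctsd holds 45.2% and Ctsb 29.3% of the sum, and the points of these 2 genes are spread more widely than those of Ctsz and Ctsa.

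The level of a gene in FPKM rests on the length it is divided by. The values of the files fit best with the joined exons of all transcripts of a gene (mean distance from whole reads 0.122 to 0.189 over the 3 replicates, against 0.209 to 0.275 with the longest transcript). This rests on 25 to 29 genes per replicate, and the margin was small in replicate 4, with 0.189 against 0.209. Genes with 1 transcript came to 0.062 to 0.086, so the fit is loose. The estimated reads of genes with several transcripts depend on it. For *Ctsc* the joined exons span 5801 bases but the longest coding transcript 2493, and for *Ctsa* 4715 and 3674. Divided by the longest coding transcript, *Ctsc* had 87.2, 71.5 and 93.9 FPKM, *Ctsh* came to 2.49 ± 0.198, *Ctsd* to 1087 ± 159 and *Ctsa* to 133, 142 and 125 FPKM. The mean log2 ratio of *Ctsa* to *Ctsc* went from 1.53 to 0.67 and that of *Ctsc* to *Ctsf* from 2.37 to 3.58. *Ctsa* then lay above *Ctsl* in replicates 1 and 3 (mean log2 ratio of *Ctsl* to *Ctsa* -0.25), while 8 of the 10 members kept their place in the order. Ratios of *Ctsd* and *Ctsa* to genes outside the 10 members are for the deposited values. The lengths of those genes were not varied.

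The replicates did not scatter evenly. *Ctsl*, *Ctsc* and *Ctsb* were lower in replicate 3 than in replicate 4, with log2 ratios of -0.49, -0.39 and -0.11, whereas *Ctsd*, *Ctsf*, *Ctsh*, *Ctsa* and *Ctsz* were higher, with 0.42, 0.28, 0.22, 0.18 and 0.13. The 3 genes that were lower have transcripts of 43.9% to 49.2% GC, and the 5 that were higher of 51.2% to 57.3%. Across these 8 members, which share the same 2 libraries, Spearman's rho between the log2 ratio and GC content was 0.690 and Pearson's r 0.908. Over all 10006 genes at 1 FPKM or more with a coding transcript, rho was 0.780. The median log2 ratio was 0.16 over the members and 0.02 over all those genes. It was 0.02 and -0.12 when each library was rescaled to the same sum, and -0.01 and -0.15 when mitochondrial genes were left out of that sum. Such a rescaling shifts all genes of a library alike, so that the sign of the members' median is set by the scaling and is not read here.

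**Figure D3:**
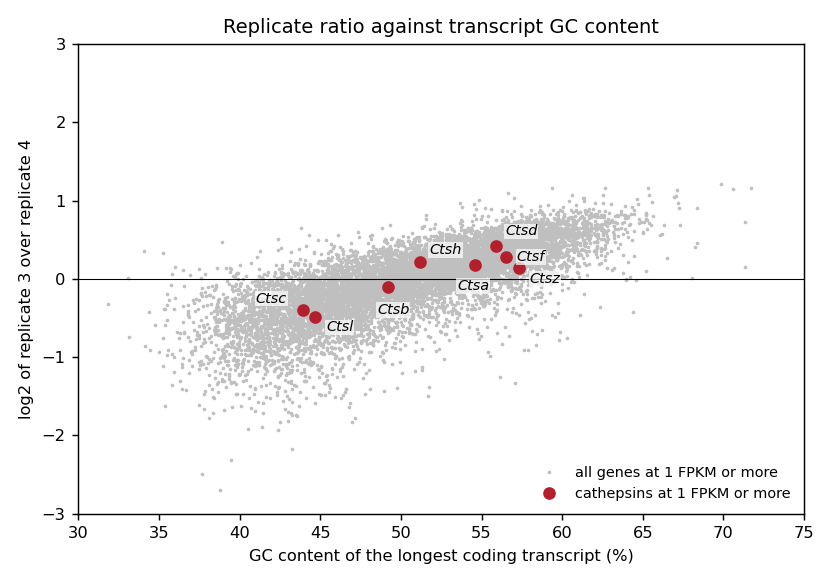
The log2 ratio of FPKM in replicate 3 over replicate 4 against the GC content of the longest coding transcript (percent), for all genes at 1 FPKM or more (grey) and the 8 cathepsins among them (red). The cathepsins follow the slope of the other genes, from Ctsl at -0.49 and 44.7% GC to Ctsd at 0.42 and 55.9% GC.

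When the trend over GC content was removed from each library, the coefficient of variation of *Ctsl* went from 16.6% to 5.42%, that of *Ctsd* from 14.7% to 4.36% and that of *Ctsc* from 13.7% to 3.29%. That of *Ctsz* moved the other way, from 4.66% to 8.68%. The median over the 8 members went from 8.81% to 3.82%, and over all 10006 genes from 11.4% to 7.2%. The trend was fitted to these same genes and libraries, so a smaller median spread is expected from the fit itself. After the adjustment *Ctsl* was above *Ctsa* in 3 of 3 replicates, with 105 to 116 FPKM against 102 to 107, ranges that still overlapped. No member changed its place in the order. The median log2 ratio of replicate 3 over replicate 4 was then -0.05 over the members, with 2 of 8 above 0 and 6 below. Spearman's rho of that ratio with GC content over the 8 members was then -0.286, and -0.310 for replicate 1 over 3. For replicate 1 over 4 it went from 0.762 to -0.786. The adjustment thus reversed the relation with GC content for that pair among these genes and did not remove it.

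**Figure D4:**
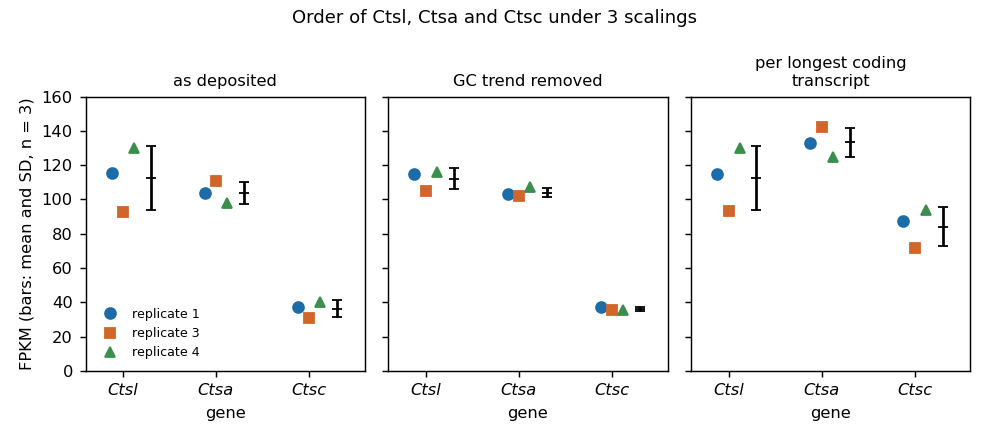
FPKM of Ctsl, Ctsa and Ctsc in replicates 1, 3 and 4, with mean and SD (n = 3), as deposited, with the GC trend of each library removed, and divided by the longest coding transcript. Ctsl and Ctsa overlap in all 3 panels, and Ctsc lies at 36.2 FPKM in the first panel and 84.2 in the last.

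The other genes of the pathway were taken from fixed lists. Of 12 other cathepsins, 0 reached 1 FPKM in every replicate, against 44.1% of all genes. *Ctso*, for cathepsin O, came nearest with 1.23, 0.87 and 1.31 FPKM, about the level of *Ctsh*. *Ctsw*, a cathepsin of cytotoxic lymphocytes, had 0.47, 0.73 and 0.22 FPKM, and *Ctse*, a second aspartic cathepsin, reached 0.01 FPKM in replicate 4 alone. The remaining 9 were listed at 0 in all 3 replicates, as were 7135 of all 22698 genes. Of the 9, *Ctsg* is a serine protease of neutrophil granules, and *Ctsj*, *Ctsm*, *Ctsq*, *Ctsr*, *Cts3*, *Cts6*, *Cts7* and *Cts8* form the placental group on chromosome 13, the chromosome of *Ctsl*.

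Among 19 inhibitors, 4 were at 1 FPKM or more in every replicate, against 44.1% of all genes. A further 11 were at 0 throughout, as were 7135 of all 22698 genes. *Cst3*, for the secreted cysteine protease inhibitor cystatin C, was highest with 844.23, 994.07 and 759.74 FPKM (mean 866 ± 119, rank 36). It exceeded the most abundant cysteine cathepsin, *Ctsb*, in every library, by 1.46, 1.72 and 1.22 times. Against the sum of the 8 cysteine cathepsins it stood at 0.851, 1.02 and 0.728, above it in replicate 3 alone. *Cstb*, for the cytosolic stefin B, followed with 200 ± 8.41 FPKM or 0.199 ± 0.0150 of that sum. *Serpinb6a* had 48.0 ± 2.93 FPKM and *Cst6*, for cystatin M, had 33.2 ± 5.83.

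The genes that deliver the enzymes to lysosomes were all measurable, with 13 of 13 at 1 FPKM or more, against 44.1% of all genes. Their median was 29.3 FPKM, against 0.277 over all genes. The sorting receptors led: *Sort1* (sortilin) had 106 ± 12.5 FPKM, *Scarb2* 85.2 ± 2.91, *M6pr* 68.2 ± 1.39 and *Igf2r* 61.7 ± 2.95. *M6pr* and *Igf2r* encode the 2 mannose 6-phosphate receptors. *Gnptab* and *Gnptg*, for the enzyme that begins the mannose 6-phosphate tag, had 13.7 ± 1.16 and 19.3 ± 0.799 FPKM, and *Nagpa*, for the enzyme that uncovers it, had 9.12 ± 1.25.

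Of 9 partners and processing genes, 8 were at 1 FPKM or more, against 44.1% of all genes. *Psap*, for the precursor of the saposins that help to break down sphingolipids, had 414 ± 4.41 FPKM, and *Ctsd* was 2.17, 2.54 and 1.94 times as high. *Lgmn*, for the asparaginyl endopeptidase legumain that cuts several cathepsins to their 2-chain forms, had 96.4 ± 3.15 FPKM. The 2 enzymes that cathepsin A protects were lower than *Ctsa*. *Ctsa* was 9.88 ± 0.273 times as high as *Neu1* (neuraminidase 1) and 3.41 ± 0.0993 times as high as *Glb1* (beta-galactosidase), ratios that varied little between libraries. Their size depends on the gene length used, with *Ctsa* at a mean of 104 FPKM as deposited and 133 per longest coding transcript. *Pltp* and *Neurl2* on the other strand overlap 10.5% and 6.87% of the exon bases of *Ctsa*, and had 9.20 and 3.15 FPKM.

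All 7 genes of lysosomal membrane proteins were at 1 FPKM or more, against 44.1% of all genes. They were led by *Lamp1* with 498 ± 10.7 FPKM, *Laptm4a* with 320 ± 10.5 and *Cd63* with 309 ± 23.1. *Ctsd* exceeded *Lamp1* in each replicate, by 1.80, 2.09 and 1.63 times. The transcription factors of the MITF and TFE family bind the E-box letters CACGTG and drive lysosomal and melanosomal genes. Of 4 such genes, 3 were at 1 FPKM or more, against the same 44.1% of all genes. These were *Tfe3* at 28.7 ± 4.64 FPKM, *Mitf* at 22.1 ± 4.69 and *Tfeb* at 7.14 ± 1.62. *Tfec* had 0.167 ± 0.0874.

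**Figure D5:**
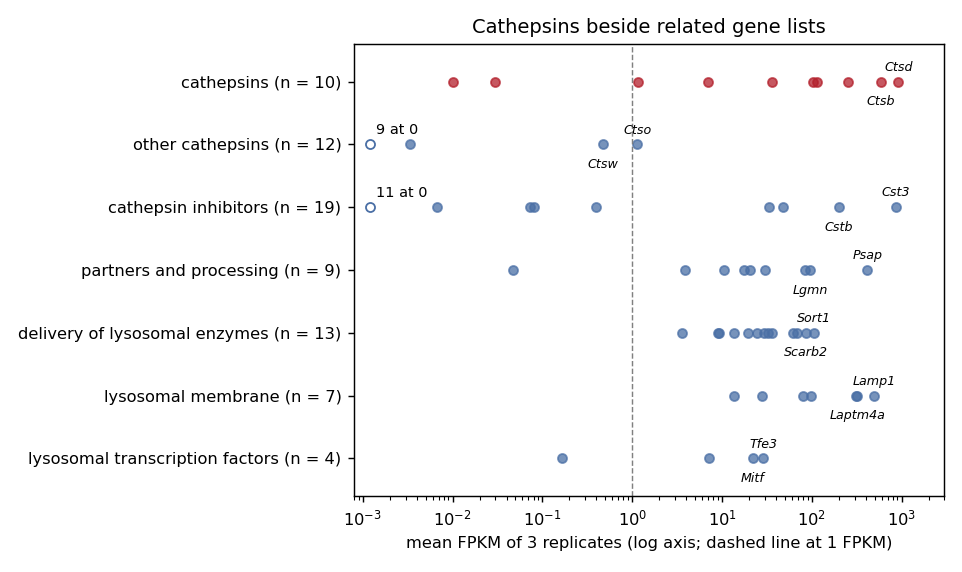
Mean FPKM over 3 replicates (log axis) of the 10 cathepsins (red) and of the genes of 6 related lists (blue), with the 2 highest genes of each named, a dashed line at 1 FPKM and genes at 0 as an open marker. The sorting and membrane genes all lie above the line, whereas 9 of 12 other cathepsins and 11 of 19 inhibitors are at 0. Of all 22698 genes, 44.1% were at 1 FPKM or more in every replicate and 7135 were at 0 in all.

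The RefSeq promoters of build GRCm38.p6, from 250 bases before to 50 after each annotated start, were available for 8 member genes in 9 windows (*Ctsb* and *Ctsh* had no entry). The letters CACGTG, which read the same on both strands, occur in 4 of these 9 windows and in 7.15% of all 32851 promoters. The matches, in capitals with up to 10 bases on either side, are shown because factors of this family were among the genes measured.

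Ctsa, first match: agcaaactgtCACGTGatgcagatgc

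Ctsa, second match: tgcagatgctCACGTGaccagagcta

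Ctsd, first match: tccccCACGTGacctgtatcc

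Ctsd, second match: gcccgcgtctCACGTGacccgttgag

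Ctsl: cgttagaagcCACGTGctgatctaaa

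Ctsf: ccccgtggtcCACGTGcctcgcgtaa

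The sequences lie at chr2:164833751-164833776 and chr2:164833768-164833793 on the plus strand (*Ctsa*), chr7:142388057-142388077 and chr7:142387910-142387935 on the minus strand (*Ctsd*), chr13:64370741-64370766 on the minus strand (*Ctsl*) and chr19:4855076-4855101 on the plus strand (*Ctsf*), all in GRCm38.p6. *Ctsa* and *Ctsd* were the only members with more than 1 match. The genes with a match had mean levels from that of *Ctsf* up to 918 FPKM and those without one (*Ctsz*, *Ctsc*, *Ctss* and *Ctsk*) of 0.01 to 255 FPKM, so that the levels of both kinds overlapped. The longer TCACGTG, which contains these letters on either strand, was in 2 of 9 windows (*Ctsa* and *Ctsd*) and in 3.77% of all promoters. TCATGTG, searched on both strands, was in 2 of 9 (*Ctsa* and *Ctss*) and in 3.77% of all. The TFAP2 letters GCCNNNGGC were in 0 of 9 windows and in 16.6% of all promoters. This form is longer and stricter than the TFAP2A consensus GCCNNNGG given in the paper, which was not searched. A match or its absence describes these letters in these windows only.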

How the data were processed

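The authors deposited FPKM values per Ensembl gene for each of 3 melan-a libraries. According to the paper's methods, stranded mRNA libraries were sequenced on an Illumina platform, the 10 bases at the 5' end were trimmed, reads were aligned to mm9 with STAR 2.3.0e, rRNA reads were removed, and genes of Ensembl release 67 were counted with htseq-count 0.5.3p3. The submitters' processing notes also name edgeR, and the deposited values carry 2 decimals and a label for TMM scaling. The gene length behind FPKM and the strand setting of the counting are not given in the sources used here. Reads from exon bases shared with another gene may not have been counted for the member. This covers the opposite-strand overlaps, depending on that setting, and the same-strand overlap of *Ctsd*. The replicates form 1 group, and no test between groups was made.

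The members and lists were chosen with earlier results of these data known. Symbols and mm9 positions came from GENCODE vM1 (Ensembl 65), which held 22324 of 22698 genes. Genes were ranked by mean FPKM. Values were called measurable above 3 reads, from a library size at which low FPKM values of short single-transcript genes gave whole reads. Named genes are the 10 members, the fixed lists and markers, and the 3 genes nearest in log2(FPKM + 1) to each of the 3 highest members. GC trends were fitted by lowess (fraction 0.3). Alternatives were a median over replicates, each replicate left out, 2 rescalings, other minima, pseudocounts and rankings. GC adjustment and transcript length were added after seeing the data. Both fits were tested on simulated data. Computations used statsmodels 0.14.6, scipy 1.17.1, Biopython 1.88, pandas 2.3.3, matplotlib 3.10.9 and numpy 2.4.6 under Python 3.11.15. Promoters came from RefSeq (GRCm38.p6). The result of 1 marker list is not reported here.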

Additional observations from a re-analysis of the deposited data

How the results depend on the processing

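The counts of cathepsins at 1 FPKM or more (8) and among the highest 1000 genes (5) moved by less than 1.5 times under every alternative tried, the lowest being 6 at a minimum of 10 FPKM. Of the 64 genes of the fixed lists, 35 were at 1 FPKM or more, against 44.1% of all genes, and 29 to 36 under the alternatives. The summed level was 1965 to 2071 FPKM with 1 replicate left out, 5369 when each library was rescaled to 1000000, which changes the unit, and 2274 with the longest coding transcript as the length. The log2 ratio of *Ctsd* to *Ctsk* was 16.19, 15.63 to 17.15 with 1 replicate left out (the highest without replicate 4), and 9.82 and 13.02 with pseudocounts of 1 and 0.1, which lift the few reads of *Ctsk*. The log2 ratio of *Ctsl* to *Ctsa* was 0.11, and -0.05 without replicate 4. *Ctso* reached the minimum of 1 FPKM without replicate 3. The log2 ratio of *Ctsf* to *Ctsh* was 2.58, and 1.88 and 2.49 with pseudocounts of 1 and 0.1. Levels and ratios of single genes were counted as moved where they shifted by 1 SD of the replicates or more, and list counts where they shifted by over 1.5 times. By that rule 22 values for single genes and lists moved, 10 with the rescaling and 8 with the transcript length, and 144 did not. For levels and ratios, leaving out 1 replicate or taking the median cannot shift a mean of 3 values by 1 SD. Those alternatives could not be counted as moved, so their part of the 144 says nothing about stability. The 144 include the mean of *Ctsk*, 0.0100 FPKM with an SD as large, which was 0.0150 without replicate 1 and 0.0050 without replicate 4. No paired analysis between groups was possible because there is 1 group, whereas ratios between genes were taken within each library. Depth limits *Ctss* and *Ctsk*, and the 2 decimals of the files limit every value near 0.01 FPKM.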

Other observations

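The genes nearest in level to the highest cathepsins over the 3 libraries were of mixed kinds. Nearest to *Ctsd* by Euclidean distance of log2(FPKM + 1) were *Rps15*, a ribosomal protein gene (903.6, 1023.36 and 781.5 FPKM in replicates 1, 3 and 4, distance 0.0613), *Ccnd1*, for cyclin D1 (920.4, 1123.71 and 779.51, distance 0.0946), and *Serpinh1*, for a collagen chaperone (distance 0.135). Nearest to *Ctsb* were the ribosomal protein gene *Rpl4* (distance 0.0719), the melanosome gene *Mlana* (590.99, 520.53 and 622.36 FPKM, distance 0.154) and *Anxa5*, for an annexin (distance 0.203). Nearest to *Ctsz* were *Lgals3bp* (distance 0.0538), *Rac1* (0.0815) and *Ubb* (0.0832). These distances are over 3 libraries of 1 condition and describe levels only. Reads from near-identical copies of *Rps15*, *Rpl4* and *Ubb* were not examined.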
